A study of Homo sapiens with 6 samples.

Results

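The genes described here were 9 transcription factors of limb and mesoderm development: PITX1, TBX5, TBX15, PRRX1, TWIST1, MYF5, FOXF1, FOXF2 and WT1. They were chosen from their measured values in these libraries, because several of them lay below the controls in both libraries of H3.3-G34W cells, so their values in that contrast are given as a description and were not tested. They were 9 of 35639 genes in the table. The measurement was bulk poly(A) RNA-seq of hFOB 1.19, an established human fetal osteoblastic line that divides at 34 °C because its immortalising large T antigen is temperature-sensitive. The cells carried a lentiviral vector with HA-tagged H3.3-G34W (a glycine-to-tryptophan change in the histone variant H3.3), the same vector with HA-tagged wild-type H3.3 (H3.3-WT), or the empty vector (EV). The added histone came on top of the cells' own H3.3 genes, transduced cells were sorted in bulk by a fluorescent marker, and each of the 3 groups had 2 libraries, collected 15 days after transduction at 34 °C. The groups follow the library titles. Relative to the titles, the labels' genotype entries swap H3.3-WT and H3.3-G34W. The column names of the deposited values match the titles. Every direction between these groups therefore rests on the titles and column names. Values are normalised estimated counts per gene, not read counts, so the depth behind each value is unknown and precision is judged from the spread between libraries, which were made in duplicate. Replicates were separate wells of an experiment, and whether they shared a transduction is not given in the sources used here.

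Limb buds grow out of lateral plate mesoderm, where TBX5 starts the forelimb programme and PITX1 gives hindlimb identity, while PRRX1, TBX15 and TWIST1 act in the mesenchyme that later forms skeleton and connective tissue. MYF5 commits somite-derived cells to skeletal muscle, FOXF1 and FOXF2 are forkhead factors of splanchnic mesenchyme that respond to Hedgehog signals, and WT1 is a zinc finger factor of kidney, gonad and mesothelium. Cultured mesenchymal cells can keep such factors switched on after they leave the body, among them PITX1 and TBX5, which mark leg and arm fibroblasts.

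Libraries from 2 of the 3 groups stood apart from the rest. In EV replicate 1, 28688 genes (80.5%) had a value of 0, where the other libraries had 14517 to 16397, and the values summed to 157595150 against 38821143 to 48024590. Of the 9 factors 7 were at 0 there, while MYF5 was listed at 1984 and WT1 at 1125. It was therefore left out, and the controls below are EV replicate 2 and both H3.3-WT libraries. H3.3-G34W replicate 1 had raised levels of pluripotency transcripts. The 12 pluripotency markers summed to 66576 in it, and to 1142 in EV replicate 2, 985 and 1073 in H3.3-WT replicates 1 and 2, and 964 in H3.3-G34W replicate 2. All 12 had their highest value of the 5 libraries in H3.3-G34W replicate 1, and the most abundant was POU5F1 with 19441 there against 41.6 to 75.4 in the others of the 5. Log2 differences of H3.3-G34W from H3.3-WT, and their medians, are therefore given with and without this library, and the part these transcripts played in any of the results was not tested.

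**Figure D1:**
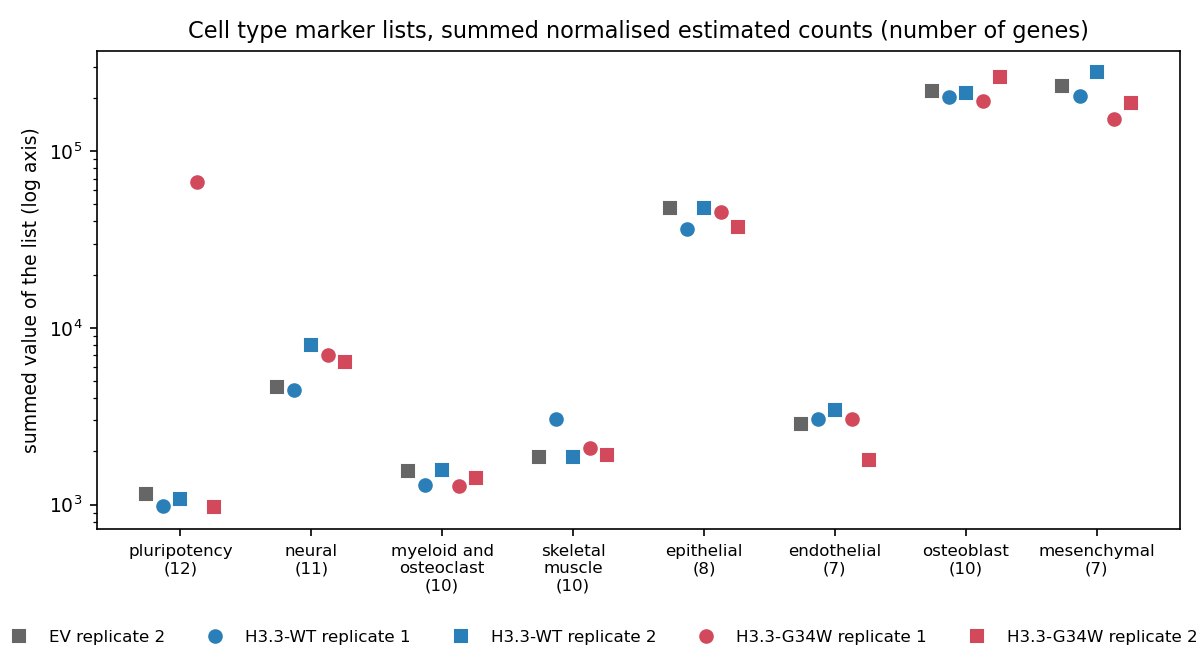
Summed normalised estimated counts (log axis) of 8 lists of cell type markers in 5 libraries, with the number of genes in each list in brackets; each point is a library. The pluripotency list stood at 66576 in H3.3-G34W replicate 1 and at 964 to 1142 in the other libraries.

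The osteoblast label was checked against 10 markers of that cell type. They summed to 219723 in EV replicate 2, 202303 and 213864 in H3.3-WT, and 191818 and 261563 in H3.3-G34W, so in this sum the 2 groups of H3.3 libraries overlapped. COL1A2, a collagen chain, had the highest value of the list. The later osteoblast genes differed in level: IBSP was above 0 only in EV replicate 2, at 2.50, SP7, the osteoblast transcription factor also called osterix, had 1.57 there, 4.39 and 6.03 in H3.3-WT, and 3.18 and 1.43 in H3.3-G34W, and BGLAP (osteocalcin) had 5.55, 44.9 and 39.3, and 4.08 and 27.4 in the same order, so both were lower in H3.3-G34W than in H3.3-WT, with EV replicate 2 between the H3.3-G34W libraries. Other markers were higher in the mean, among them SPP1 (osteopontin) and ALPL, with log2 differences of 0.69 and 0.59. SPP1 had 413, 171 and 544, and 649 and 377 in the same order, and ALPL had 428, 245 and 236, and 1216 and 107. Of the 8 markers with a mean of at least 5 over the 5 libraries, 4 were lower in H3.3-G34W, with a median difference of -0.07. SP7, with a mean of 3.32, was not among these 8. RUNX2, the factor that acts before SP7, had 573 in EV replicate 2, 387 and 430 in H3.3-WT, and 236 and 445 in the H3.3-G34W libraries. The collagen chains and SPARC were thus abundant, while SP7 and IBSP were at or near 0.

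Among the 9 factors, 4 (PITX1, FOXF1, WT1 and MYF5) had values in both H3.3-G34W libraries below those of all 3 controls, and the other 5 overlapped the controls. The same held for 9.51% of the 17543 genes with a mean of at least 5 over the 5 libraries, a filter that 8 of the 9 factors passed. For PITX1 and MYF5 the gap was at least 1 on the scale of log2(value + 1), on which all log2 differences are given, as it was for 0.331% of genes. With H3.3-G34W replicate 2 alone, 5 factors lay below the controls (background 16.5%), PRRX1 being the addition. With H3.3-G34W replicate 1 alone 7 did (background 41%), all but FOXF2 and PRRX1. Nothing is read from these counts, since these genes were selected on them. In bulk RNA, fewer cells with a transcript and less of it per cell cannot be told apart.

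**Figure D2:**
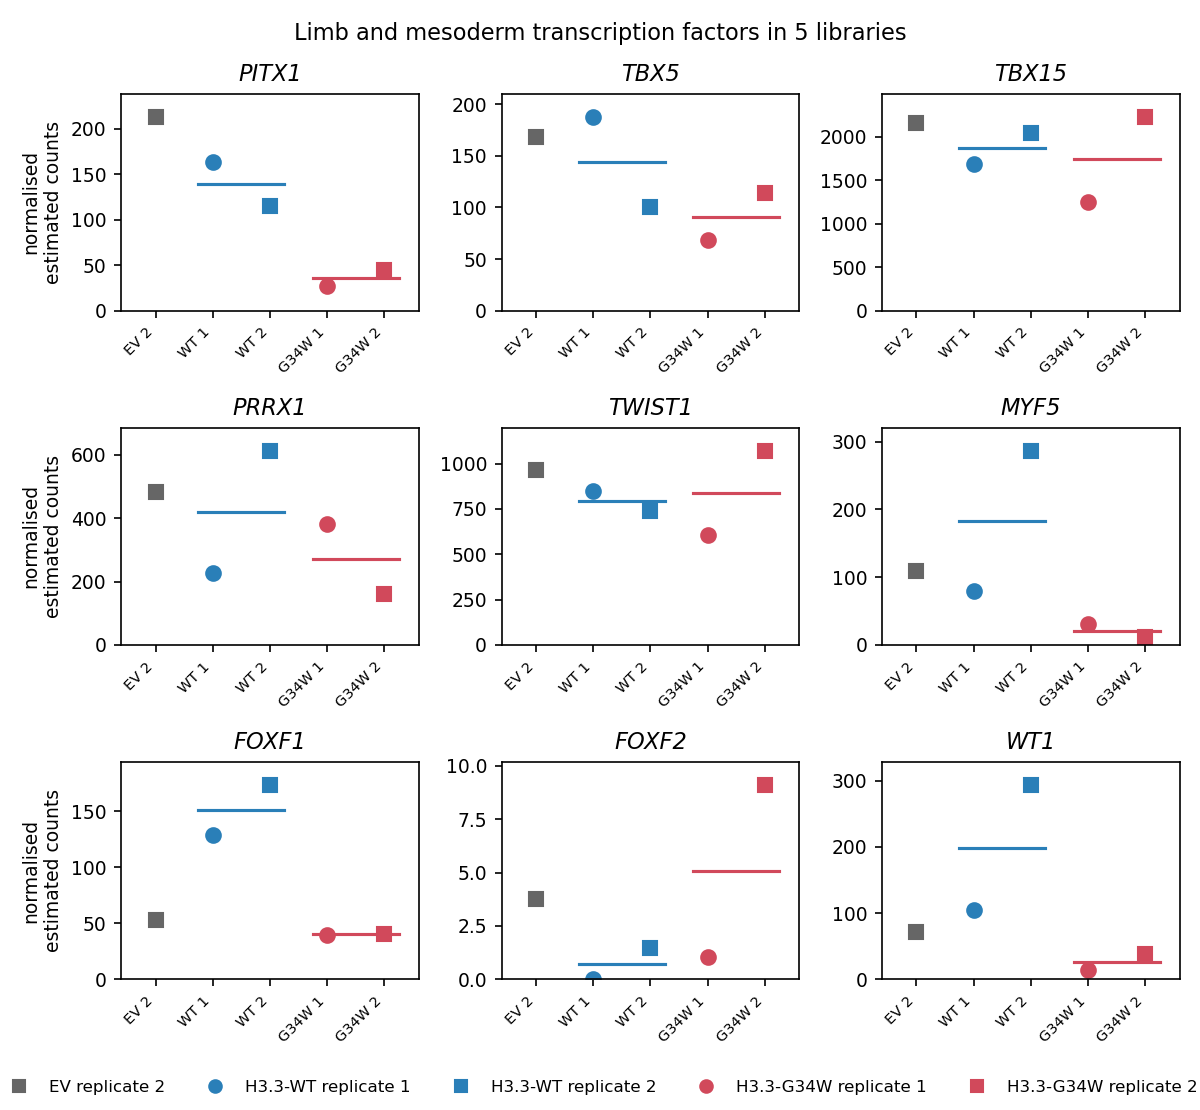
Normalised estimated counts of the 9 factors in 5 libraries (linear axes from 0, each with its own range); points are libraries and lines are means of the 2 libraries of a group. The H3.3-G34W points lay under all 3 controls for PITX1, MYF5, FOXF1 and WT1.

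PITX1 (ENSG00000069011; chr5:135027734-135034789 of GRCh38.p14), the paired-type homeodomain factor of the hindlimb, had 213 in EV replicate 2, 163 and 115 in H3.3-WT replicates 1 and 2, and 27.1 and 44.95 in H3.3-G34W replicates 1 and 2. The groups did not overlap. The mean was 139 ± 34.0 (SD, n = 2) in H3.3-WT and 36.0 ± 12.6 (SD, n = 2) in H3.3-G34W, a difference of -1.94 (SE 0.55). H3.3-G34W replicate 2 alone differed from the H3.3-WT mean by -1.59 and from EV replicate 2 by -2.22.

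TBX5 (ENSG00000089225; chr12:114353911-114408442), the T-box factor of forelimb and heart, had 168 in EV replicate 2, 188 and 101 in H3.3-WT, and 68.3 and 114 in the H3.3-G34W libraries. The last of these lay above H3.3-WT replicate 2, so the groups overlapped, and the difference of -0.63 (SE 0.54) shrank to -0.27 in H3.3-G34W replicate 2 alone. TBX15 (ENSG00000092607; chr1:118883047-118989510), a T-box factor of limb and craniofacial skeleton, had 2153 in EV replicate 2, 1685 and 2041 in H3.3-WT, and 1251 and 2227 in H3.3-G34W. Its H3.3-G34W libraries held both the lowest and the highest value, and the difference of -0.15 (SE 0.32) turned to 0.26 without H3.3-G34W replicate 1. PITX1 was thus low in both H3.3-G34W libraries, whereas TBX5 and TBX15 were below the controls only in the library with raised pluripotency transcripts. In that library 41% of all genes with a mean of at least 5 lay below the 3 controls.

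PRRX1 (ENSG00000116132; chr1:170662768-170739421), a homeodomain factor of limb mesenchyme, had 482 in EV replicate 2, 226 and 611 in H3.3-WT, and 380 and 159 in the H3.3-G34W libraries. Here the low H3.3-G34W library was replicate 2, which lay -1.22 from the H3.3-WT mean, while replicate 1 lay within the controls at 0.03. TWIST1 (ENSG00000122691; chr7:19113047-19117636), a basic helix-loop-helix factor that restrains osteoblast differentiation, had 964 in EV replicate 2, 850 and 740 in H3.3-WT, and 606 and 1070 in H3.3-G34W. Like TBX15 it was lowest in H3.3-G34W replicate 1 and highest in replicate 2, with a mean difference of 0.02 (SE 0.34) that became 0.43 in replicate 2 alone.

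MYF5 (ENSG00000111049; chr12:80716912-80719671), the helix-loop-helix factor that is the earliest of the myogenic regulators, had 109 in EV replicate 2, 79.4 and 286 in H3.3-WT, and 31.2 and 11.4 in the H3.3-G34W libraries. Every H3.3-G34W value was below every control, and the lowest was in replicate 2, the library without raised pluripotency transcripts. The mean was 183 ± 146 (SD, n = 2) in H3.3-WT and 21.3 ± 14.0 (SD, n = 2) in H3.3-G34W, a difference of -2.93 (SE 0.79) that was -3.62 with H3.3-G34W replicate 2 alone.

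WT1 (ENSG00000184937; chr11:32387775-32435539) had 71.4 in EV replicate 2, 104 and 293 in H3.3-WT replicates 1 and 2, and 14.3 and 38.7 in H3.3-G34W replicates 1 and 2. Both H3.3-G34W values lay below the controls, nearest to EV replicate 2, from which H3.3-G34W replicate 2 differed by -0.87. Against the H3.3-WT mean the difference was -2.83 (SE 0.74), and -2.15 with H3.3-G34W replicate 2 alone. MYF5 and WT1 both had their highest value in H3.3-WT replicate 2, so the size of their difference from H3.3-WT leaned on that library: without it, MYF5 differed by -2.01 and WT1 by -2.09.

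FOXF1 (ENSG00000103241; chr16:86510527-86515422) had 53.1 in EV replicate 2, 129 and 173 in H3.3-WT, and 39.9 and 40.4 in the H3.3-G34W libraries. The H3.3-G34W libraries agreed closely with each other and were close to EV replicate 2, from which replicate 2 differed by -0.39, while both H3.3-WT libraries stood above. The difference from H3.3-WT was -1.87 (SE 0.56), and -1.86 without H3.3-G34W replicate 1. FOXF2 (ENSG00000137273; chr6:1389576-1395603), its paralogue, was barely detected, with 3.75 in EV replicate 2, 0 and 1.46 in H3.3-WT, and 1.02 and 9.10 in H3.3-G34W. It was the factor that failed the filter on low values, and its H3.3-G34W values lay on either side of EV replicate 2.

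**Figure D3:**
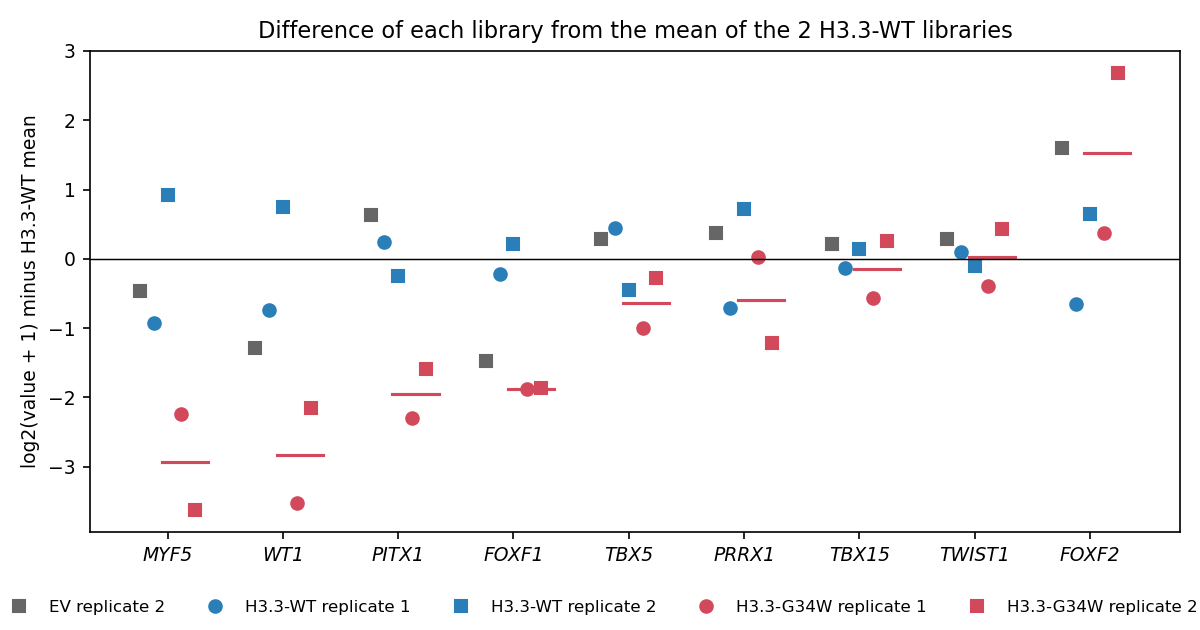
Difference of log2(value + 1) in each library from the mean of the 2 H3.3-WT libraries, for the 9 factors; points are libraries and red lines are the mean of the 2 H3.3-G34W libraries. These means ran from -2.93 for MYF5 to 1.53 for FOXF2, and both H3.3-G34W points lay under the controls for 4 factors.

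The spread between libraries of the same group differed widely among the factors. The H3.3-WT libraries differed by 1.84 in MYF5, 1.49 in WT1 and 1.43 in PRRX1 on the log2 scale, more than they did in 92.7%, 90.2% and 89.6% of the 17543 genes, whose median was 0.39. They were much closer for TBX15 (0.28) and TWIST1 (0.20). FOXF1 had the closest H3.3-G34W libraries of the 9, at 0.02 apart against a median of 0.44 over all genes. The factors with the largest mean differences, MYF5 and WT1, were thus also those with wide replicates, whereas PITX1 and FOXF1 combined differences of -1.94 and -1.87 with replicate gaps of 0.71 or less in both groups. The PITX1 gaps of 0.50 in H3.3-WT and 0.71 in H3.3-G34W were still wider than in 60.2% and 69.9% of genes. The FOXF1 gap of 0.43 in H3.3-WT was wider than in 53.6%.

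The contrast of H3.3-WT with EV is described without a test of the factors, as its libraries were the controls when the genes were chosen. The background came from limma on log2(value + 1) over all 17543 genes with Benjamini-Hochberg adjustment, with EV as a lone library assumed to vary like the others. It called 0 genes at an adjusted p under 0.05 (0% of genes), and 180 genes had an unadjusted p under 0.05. FOXF1 stood above EV replicate 2 in both H3.3-WT libraries, by a mean of 1.48, as did WT1, by 1.28, which became 0.54 without H3.3-WT replicate 2 and 2.02 without replicate 1. Both H3.3-WT libraries were lower than EV replicate 2 in PITX1 (-0.63), TBX15 (-0.21), TWIST1 (-0.28) and FOXF2 (-1.60). Over all genes this order was not counted, so nothing is read from the number of factors. With an H3.3-WT library left out, the smallest differences were -0.38, -0.08, -0.18 and -0.95 in that order. That of FOXF2 rests on values near 0, with 3.75 in EV replicate 2 and 0 and 1.46 in H3.3-WT. It was -3.29 with a pseudocount of 0.1 and -0.36 with a pseudocount of 10. Against EV replicate 2 in place of H3.3-WT, the mean of the H3.3-G34W libraries differed by -2.57 in PITX1, -2.47 in MYF5, -1.55 in WT1 and -0.40 in FOXF1. Among PITX1, MYF5, WT1 and FOXF1, the low level of FOXF1 thus depended most on which control it was set against. This order turned without H3.3-WT replicate 1, where H3.3-WT differed from EV replicate 2 by 2.02 in WT1 and 1.69 in FOXF1. The comparisons with H3.3-WT and with EV share the H3.3-G34W libraries.

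Promoters are shown for the factors that were below all controls and had an entry in the RefSeq table used, which matched 6 of the 9 factors by symbol (all but FOXF1, TBX15 and TWIST1). Each is 250 bases before to 50 after a start site of GRCh38.p14, written 5′ to 3′ along the gene, with capitals for TATAAA, the E-box CANNTG (bound by helix-loop-helix factors such as MYF5 and TWIST1) and the GC box GGGCGG, all sought on both strands, with overlapping matches running together.
PITX1 (chr5:135034179-135034478, minus strand): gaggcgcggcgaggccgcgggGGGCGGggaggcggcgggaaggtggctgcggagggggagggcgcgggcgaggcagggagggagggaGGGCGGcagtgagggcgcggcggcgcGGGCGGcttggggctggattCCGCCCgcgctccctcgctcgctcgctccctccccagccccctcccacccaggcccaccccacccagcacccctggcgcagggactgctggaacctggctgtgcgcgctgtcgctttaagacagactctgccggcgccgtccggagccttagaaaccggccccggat
MYF5 (chr12:80716662-80716961, plus strand): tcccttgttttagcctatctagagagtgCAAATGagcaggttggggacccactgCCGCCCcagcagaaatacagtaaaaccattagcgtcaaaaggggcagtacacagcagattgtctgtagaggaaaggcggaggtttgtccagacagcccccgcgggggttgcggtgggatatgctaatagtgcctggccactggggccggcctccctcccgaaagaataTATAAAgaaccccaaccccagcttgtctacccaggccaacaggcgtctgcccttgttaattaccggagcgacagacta
WT1 (chr11:32435490-32435789, minus strand, 1 of its 4 entries): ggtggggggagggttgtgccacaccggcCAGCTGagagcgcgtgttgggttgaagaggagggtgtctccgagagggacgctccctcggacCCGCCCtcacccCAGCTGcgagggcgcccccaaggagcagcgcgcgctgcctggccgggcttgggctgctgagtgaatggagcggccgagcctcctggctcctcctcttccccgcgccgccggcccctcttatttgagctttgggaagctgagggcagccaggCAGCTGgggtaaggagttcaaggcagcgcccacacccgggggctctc
All the windows printed held a GC box, though no other entry of WT1 did, and the printed windows differed in the other motifs. PITX1 held 4 GC boxes, no TATAAA and no E-box, and its 35 CG dinucleotides were more than in 85.9% of all 35116 promoters of this length. MYF5 held TATAAA on the given strand, 1 GC box, 1 E-box and 11 CG dinucleotides, more than in 45.3% of promoters. WT1 held 3 E-boxes, 1 GC box and 21 CG dinucleotides, more than in 60.5%. Its other entries held 1 E-box at most and 4 to 20 CG dinucleotides, so these counts depend on the entry printed. Of all promoters, 11.5% held TATAAA, 68.7% an E-box and 45% a GC box. The core letters TAATCC (PITX factors, in 6.36% of promoters), GTAAACA (forkhead factors, 3.42%) and GGTGTGA (T-box factors, 3.45%) were in none of the windows printed, and TAATTA (homeodomain factors, 4.84%) was in MYF5 alone of these. Windows that are not printed did hold such letters: of the other entries of WT1, 1 held TAATCC and GTAAACA and another TAATTA, which was also in 1 window of TBX5, and PRRX1 held TAATCC. Among the factors with entries that were not below all controls, the count of CG dinucleotides was as mixed, with 26 in FOXF2, 21 and 15 in the windows of TBX5 and 11 in PRRX1.

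Paralogues of the factors were described from a list of 27 family members, of which 20 passed the filter. None was called by limma in the contrast of H3.3-G34W to H3.3-WT, where 0 of 17543 genes (0%) had an adjusted p under 0.05, and 485 had an unadjusted p under 0.05. In 8 of the 20 both H3.3-G34W libraries lay below all controls and in 0 above them, against 9.51% and 7.93% of all genes. The median log2 difference was -0.41, against -0.05 over all genes, and came to -0.14 with H3.3-G34W replicate 2 alone against 0.04.

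PITX3, a factor of eye lens and midbrain, had 51.7 in EV replicate 2, 37.8 and 69.0 in H3.3-WT, and 12.9 and 31.4 in H3.3-G34W, below all controls though by little in replicate 2. TBX4, the T-box partner of PITX1 in the hindlimb, was close to absent, with 18.8 at most. The T-box paralogues below all controls in both H3.3-G34W libraries were TBX2, TBX3, TBX6 and TBX20. TBX6 and TBX20 differed from H3.3-WT by -1.20 and -0.71 (-1.03 and -0.51 with H3.3-G34W replicate 2 alone). TBX3, a repressor in limb patterning, was the most abundant of them, with 5999.7 in EV replicate 2, 4351 and 7431 in H3.3-WT, and 3561 and 3034 in H3.3-G34W. Its groups did not overlap, but its log2 difference of -0.79 (SE 0.30) did not pass the test (adjusted p = 1 from limma). This difference was -0.91 with H3.3-G34W replicate 2 alone, -0.40 without H3.3-WT replicate 2 and -1.18 without H3.3-WT replicate 1. TBX2, which pairs with TBX3, had 909 in EV replicate 2, 989 and 1246 in H3.3-WT, and 693 and 826 in H3.3-G34W, also without overlap.

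PRRX2 and TWIST2, the close relatives of PRRX1 and TWIST1, did not mirror them. PRRX2 had 352 in EV replicate 2, 500 and 229 in H3.3-WT, and 260 and 621 in H3.3-G34W, with its highest value in H3.3-G34W replicate 2, where PRRX1 was lowest. TWIST2 had 250 in EV replicate 2, 280 and 444 in H3.3-WT, and 249 and 219 in H3.3-G34W, just below the controls, while TWIST1 straddled them. The forkhead genes FOXC1, FOXC2, FOXD1 and FOXL1 differed from H3.3-WT by -0.31, -0.17, -0.24 and -0.30 (-0.10, -0.18, 0.01 and -0.25 with H3.3-G34W replicate 2 alone), and FOXC1 was the member of these that lay below all controls.

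MYF5 belongs to a family of 4 myogenic helix-loop-helix factors, whose members differed in their values. MYF6, which sits 7.44 kb from MYF5, had 24.99 in EV replicate 2, 21.1 and 23.3 in H3.3-WT, and 10.2 and 9.10 in H3.3-G34W. It was below all controls in both H3.3-G34W libraries, as MYF5 was, with a log2 difference of -1.12 (SE 0.90, adjusted p = 1 from limma; -1.20 with H3.3-G34W replicate 2 alone). MYOD1, which acts beside MYF5, had 853 in EV replicate 2, 916 and 526 in H3.3-WT, and 139 and 700 in H3.3-G34W. MYOG, the factor of terminal muscle differentiation, had 359 in EV replicate 2, 369 and 109 in H3.3-WT, and 120 and 548 in H3.3-G34W. MYOD1 was below the controls in H3.3-G34W replicate 1 only, and MYOG was above them in replicate 2 and among them in replicate 1. The log2 differences from H3.3-WT, -1.15 and 0.36, were thus 0.01 and 1.45 without replicate 1. That of MYOG changed sign to -0.73 without H3.3-G34W replicate 2 and to -0.52 without H3.3-WT replicate 2.

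Of the paired-box factors of muscle precursors, PAX7 was low, with 1.59 in EV replicate 2, 3.54 and 42.0 in H3.3-WT, and 7.85 and 0 in H3.3-G34W. PAX3, the paired-box factor upstream of MYF5, had 737 in EV replicate 2, 778 and 698 in H3.3-WT, and 609 and 1222 in H3.3-G34W. DES, the muscle intermediate filament desmin, had 2508 in EV replicate 2, 3667 and 1629 in H3.3-WT, and 611 and 1599 in H3.3-G34W. CHRNA1, a subunit of the muscle acetylcholine receptor, had 1372 in EV replicate 2, 1324 and 1103 in H3.3-WT, and 457 and 1045 in H3.3-G34W. DES and CHRNA1 were both low in H3.3-G34W replicate 1, and replicate 2 was just under the lowest control, whereas CDH15, the cadherin of myoblasts, and MYH3, the embryonic myosin, overlapped the controls. These genes were named after their values were seen. Mature muscle was little represented: the 10 skeletal muscle markers summed to 1864 in EV replicate 2, 3030 and 1871 in H3.3-WT and 2101 and 1908 in H3.3-G34W, most of it TNNT1, and the fast myosin MYH1 was at 0 in all but H3.3-WT replicate 1. The low MYF5 and MYF6 of H3.3-G34W replicate 2 thus stood beside MYOD1, MYOG and PAX3 values that were not low.

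**Figure D4:**
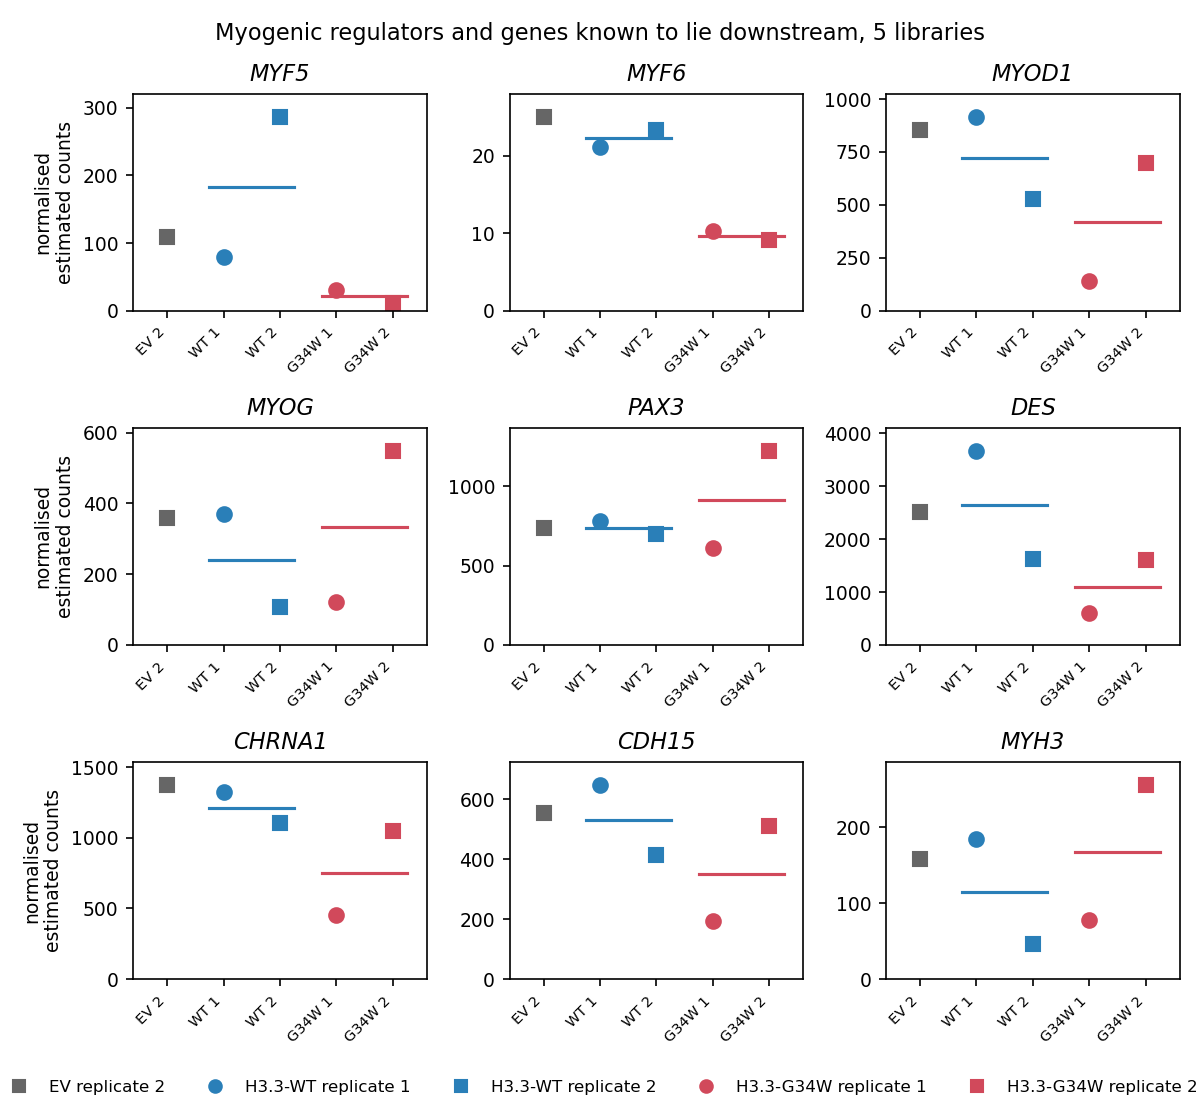
Normalised estimated counts of MYF5, its family, PAX3 and genes known to lie downstream of myogenic factors in 5 libraries (linear axes from 0); points are libraries and lines are means of the 2 libraries of a group. MYF5 and MYF6 were low in both H3.3-G34W libraries, while MYOD1 and MYOG had 139 and 120 in replicate 1 and 700 and 548 in replicate 2.

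The wider setting was 144 genes in 7 lists: the paralogues, limb bud transcription factors, limb bud signals, somite factors, intermediate and lateral plate factors, helix-loop-helix partners, and genes known to lie downstream of the 9 factors. Of these, 114 were tested and 0 were called in that contrast. At an unadjusted p under 0.05, 4 were lower and 6 higher, against 1.06% and 1.7% of all genes. For 21 of them both H3.3-G34W values were below all controls and for 10 above, against 9.51% and 7.93% of all genes. Their median log2 difference of -0.21 (all genes -0.05) came to -0.02 with H3.3-G34W replicate 2 alone (all genes 0.04). By list, this median was -0.14 for 27 limb bud transcription factors tested, -0.22 for 16 limb bud signals, -0.45 for 16 somite factors, -0.26 for 13 intermediate and lateral plate factors, -0.12 for 7 helix-loop-helix partners and -0.02 for 15 downstream genes. With H3.3-G34W replicate 2 alone the same medians were 0.05, -0.06, -0.02, 0.05, -0.13 and -0.02, so most of them were close to 0 without replicate 1.

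Several of these genes were named after their values were seen, as none passed the test. LHX9, a LIM homeodomain factor of the limb bud and gonad, had 116 in EV replicate 2, 185 and 129 in H3.3-WT, and 43.4 and 63.6 in H3.3-G34W, with no overlap and a log2 difference of -1.54 (SE 0.53, adjusted p = 1 from limma; -1.27 with H3.3-G34W replicate 2 alone). HHIP, the membrane protein that binds and restrains Hedgehog ligands, had 756 in EV replicate 2, 835 and 1063 in H3.3-WT, and 403 and 380 in H3.3-G34W. It lay below the controls in both H3.3-G34W libraries, as FOXF1 did, whereas the Hedgehog receptor PTCH1 and the Hedgehog effector GLI1 overlapped them. PKDCC, a secreted kinase of limb outgrowth, went the other way, with 276 in EV replicate 2, 251 and 251 in H3.3-WT, and 678 and 476 in H3.3-G34W. The higher values of SALL4, CDH1 and FGFR2 were found mainly in H3.3-G34W replicate 1, at 1363, 2104 and 227, against 60.1, 64.9 and 2.35 in replicate 2; SALL4 is itself in the pluripotency list.

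**Figure D5:**
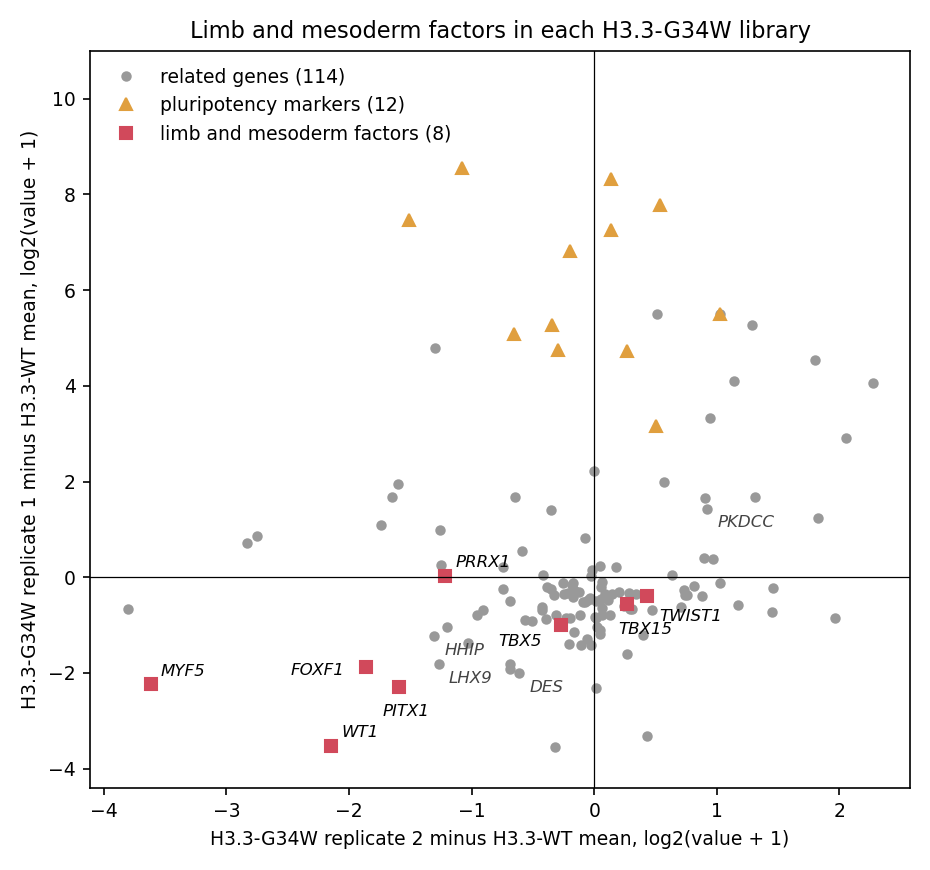
Difference of log2(value + 1) from the H3.3-WT mean in H3.3-G34W replicate 2 (horizontal) and replicate 1 (vertical) for 114 related genes, 12 pluripotency markers and the 8 factors that passed the filter; each point is a gene. PITX1, FOXF1, WT1 and MYF5 lie in the lower left, and the pluripotency markers lie high on the vertical axis.

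Genes beside the factors were compared in the order of GRCh38.p14. The nearest gene of the table on each side, and any gene within 20 kb, gave 18 neighbours, of which 9 had a mean of at least 5 and 3 of these lay below all controls, as did 9.51% of all genes. These 3 were MYF6 beside MYF5, FOXC1, 214 kb from FOXF2, and MTHFSD, which encodes a protein with a methenyltetrahydrofolate synthetase domain and lies 14.8 kb from FOXF1, with 518 in EV replicate 2, 466 and 510 in H3.3-WT, and 367 and 378 in H3.3-G34W. The log2 difference of MTHFSD was -0.39, and -0.37 with H3.3-G34W replicate 2 alone. The neighbours of PITX1 and WT1 that passed the filter overlapped the controls: MACROH2A1, 300 kb from PITX1, had 12905 in EV replicate 2, 13588 and 16099 in H3.3-WT, and 11538 and 14170 in H3.3-G34W, and EIF3M, 148 kb from WT1, had 9450, 12466 and 12071 in the controls, and 11845 and 11171 in H3.3-G34W. Antisense and divergent RNAs that overlap or adjoin the factors, such as WT1-AS, PITX1-AS1, TBX5-AS1 and FENDRR, were not analysed here.

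Likeness was measured by the root mean square difference of log2(value + 1), centred on each gene's mean, over the 5 libraries. FOXF2, with a mean of 3.07, was left out. For each remaining factor, the nearest genes were sought among 13403 genes with a mean of at least 50. For PITX1 they were HOXB13 (0.31), SCUBE3 (0.34) and CCDC68 (0.38). SCUBE3 had 535 in EV replicate 2, 520 and 560 in H3.3-WT, and 117 and 137 in H3.3-G34W. HOXB13 had 226 in EV replicate 2, 130 and 87.4 in H3.3-WT, and 26.1 and 62.0 in H3.3-G34W, so that the 5 libraries stood in the same order as for PITX1. For FOXF1 they were KRT34 (0.18), UPK3BL1 (0.19) and PRLR (0.31), all with H3.3-WT above the other 3 libraries. KRT34, a hair keratin, had 252 in EV replicate 2, 507 and 716 in H3.3-WT, and 227 and 197 in H3.3-G34W. For WT1 the nearest was PLCB4 (0.25), with 158 in EV replicate 2, 224 and 511 in H3.3-WT, and 40.2 and 112 in H3.3-G34W, followed by AC013489.1 (0.46) and ZACN (0.47). For MYF5 they were EPGN (0.59), ELFN1 (0.63) and G0S2 (0.72).

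This measure grows with the range of a gene's values, so it is not compared between factors. TBX15 was nearest to MTMR4, TRIM44 and SAMHD1, at 0.02, 0.03 and 0.03, and TWIST1 to DYNLT3, IFITM1 and LAMA5, at 0.03, 0.04 and 0.05. TBX5 was nearest to BTG2 (0.07), GRASP (0.08) and MYRF (0.09), and PRRX1 to ADGRF4 (0.10), CSF1R (0.20) and CDC42BPG (0.23). None of the factors searched was among the 3 nearest of another, though PITX1, FOXF1, WT1 and MYF5 were all low in H3.3-G34W. They differed in the order of the controls: EV replicate 2 was the highest for PITX1, the lowest for FOXF1 and WT1, and between the H3.3-WT libraries for MYF5.

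When H3.3-G34W was set against EV, limma called 0 genes (0% of 17543) too, with 330 at an unadjusted p under 0.05. With 2 libraries per group, 1 of them with raised pluripotency transcripts, the values of PITX1, FOXF1, WT1 and MYF5 rest for the H3.3-G34W side on replicate 2 wherever replicate 1 is set aside. Rescaling each library to a median ratio of 1 kept the same 4 factors below all controls.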

How the data were processed

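Bulk RNA of hFOB 1.19 cells with the empty vector (EV) or added H3.3-WT or H3.3-G34W was sequenced after poly(A) selection with a directional kit. The authors estimated transcript abundances with kallisto on Ensembl GRCh38 models, collapsed these to genes with tximport and applied DESeq2 normalisation (tool versions are not given in the sources used here). The deposited values are this normalised signal, estimated counts that are not whole numbers, for 35639 genes in 6 libraries. Whole reads could not be recovered from them, so the count-based tests planned in case of whole counts were not run. Such scaling assumes that most genes are level between libraries.

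Values were used as log2(value + 1). Genes with a mean of at least 5 over 5 libraries (EV replicate 1 left out) were fitted in limma 3.58.1 (R 4.3.3) with 3 groups, a variance trend and Benjamini-Hochberg adjustment, with an adjusted p under 0.05 as threshold. The added 1 pulls log2 differences of low genes towards 0. The standard errors are the moderated ones. The 9 factors and the gene lists were chosen with earlier results of these data known. Genes named are the 9 factors, their paralogues, their neighbours, related genes that pass the test (none did) and the 3 genes nearest in pattern to each factor but FOXF2. Any others, genes of the marker lists among them, were named after their values were seen. A few genes of the lists are counted but not reported here one by one. Positions, neighbours and promoters come from RefSeq on GRCh38.p14, matched by symbol. Alternatives were other pseudocounts, filters and scaling, no variance trend, a replicate block, all 6 libraries, an added fold threshold and leaving out each library in turn. Figures were drawn with matplotlib 3.10.9.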

Additional observations from a re-analysis of the deposited data

Results flagged for a closer look

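H3.3-G34W replicate 1 held a signal outside the genes compared: its 12 pluripotency markers summed to 66576, against 964 to 1142 in the controls and in H3.3-G34W replicate 2. In that library TBX5, TBX15 and TWIST1 had their lowest value of the 5 libraries, as did PITX1, FOXF1 and WT1. PITX1, FOXF1, WT1 and MYF5 were low in both H3.3-G34W libraries. Of all genes with a mean of at least 5, 41% lay below the 3 controls in replicate 1 and 16.5% in replicate 2. The part of the pluripotency signal in those values was not tested. No group had the 4 libraries needed to look for outlying values within it.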

How the results depend on the processing

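The count of called genes was 0 in each of the 3 comparisons by limma, and was again 0 without a variance trend, with a pseudocount of 10, with no filter or a minimum mean of 50, after rescaling, with all 6 libraries, with the fold threshold, and without each library in turn. With a pseudocount of 0.1 it was 1 for H3.3-G34W against EV and 1 for H3.3-WT against EV, both times PPP1R11, listed at 0 in EV replicate 2 and named after its values were seen. The related genes called numbered 0 in every alternative run. A fit that took the replicate number for a block gave counts of 0 as well; same-numbered H3.3-WT and H3.3-G34W libraries deviated with a correlation of 0.08 across genes, and nothing in the labels pairs them beyond the number. Genes at an unadjusted p under 0.05 for H3.3-G34W minus H3.3-WT ranged from 39 (all 6 libraries) to 1538 (without H3.3-G34W replicate 2). Factors below all controls numbered 4 to 7 when each library was left out in turn, a step that cannot lower this count. They numbered 2 (WT1 and MYF5) with all 6 libraries, since EV replicate 1 is listed at 0 for the others.

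The difference H3.3-G34W minus H3.3-WT of PITX1 ranged from -2.30 to -1.59 over the alternatives, FOXF1 from -2.08 to -1.66, WT1 from -3.58 to -2.09 and MYF5 from -3.85 to -2.01. Both H3.3-G34W values of these factors lay below every control, which bears on how the genes were chosen. Leaving out a library therefore could not turn their sign, and nothing is read from its staying the same. TBX15, PRRX1 and TWIST1, which overlapped the controls, changed sign in 1, 2 and 2 of 8. Without EV replicate 2 the comparisons with EV have no value. Tests on whole counts were not run, as the values are not counts. Depth per library is unknown, so low genes such as FOXF2 and MYF6 have no counting error attached, and a group left with a lone library is assumed to vary like the others.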

Other observations

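The remaining marker lists gave these sums in EV replicate 2, H3.3-WT replicates 1 and 2 and H3.3-G34W replicates 1 and 2, in that order. The 11 neural markers summed to 4644, 4453, 8006, 6997 and 6438, most of it TUBB3, and OTX2 had 541 in H3.3-G34W replicate 1 and no more than 1.80 elsewhere. The 8 epithelial markers summed to 47390, 36417, 47663, 44983 and 37395, most of it the keratins KRT18 and KRT8, and EPCAM had 2175 in H3.3-G34W replicate 1 against 9.97 to 46.6 elsewhere. The 10 myeloid and osteoclast markers summed to 1555, 1296, 1579, 1266 and 1408, most of it the lysosomal gene CD68, and OCSTAMP was at 0 in all 5.

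The 7 endothelial markers summed to 2871, 3054, 3425, 3060 and 1793, with TEK, the angiopoietin receptor, the most abundant at 1952, 1829, 1958, 1548 and 782. The 7 mesenchymal markers summed to 233036, 204314, 278641, 152407 and 186174, most of it VIM, so both H3.3-G34W libraries were below the controls on that list, as they were for PITX1, FOXF1, WT1 and MYF5. Of its 7 genes 5 lay below all controls in both H3.3-G34W libraries (9.51% of all genes did), among them PDGFRA with 116, 150, 91.7, 60.2 and 47.3 and DCN with 449, 506, 397, 201 and 298. The other 2 did not: THY1 had 2887, 2955, 2636, 7023 and 2537, and PDGFRB 4379, 3693, 3131, 3443 and 3551. These genes were named after their values were seen, and none passed the limma test in the contrast of H3.3-G34W to H3.3-WT.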
